A study of Mus musculus with 4 samples.

Results

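The 10 genes described here encode the AP-1 family of transcription factors and were taken by name, as Fos, Fosb, Fosl1, Fosl2, Jun, Junb, Jund, Batf, Batf3 and Atf3, from 21755 annotated protein-coding genes. All 10 were found in the annotation. ATAC-seq, in which the Tn5 transposase inserts adapters into accessible DNA, had been performed on bone marrow-derived macrophages (BMDMs), cells that grow out of mouse marrow in medium with L929-conditioned supernatant (20%) over 6 to 8 days. WT cells came from H3f3a fl/fl:H3f3b fl/fl mice, in which both genes of the replacement histone H3.3 are flanked by loxP sites and no Cre is present. H3.3cKO cells came from mice that carried the same floxed alleles together with LysM cre/cre, so that Cre was made from the myeloid Lyz2 locus. Each genotype was represented by 2 biological replicates, and the mice were C57BL/6 animals of both sexes, 8 to 10 weeks old. Only the H3.3cKO mice carried Cre, so that loss of H3.3 and presence of Cre cannot be told apart. The study reports that H3f3b deletion appeared variable, complete in some H3.3cKO samples and partial in others.

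AP-1 is a dimer of basic leucine zipper (bZIP) proteins. Jun proteins pair with themselves, with Fos proteins or with proteins of the Batf and Atf groups, and the dimers bind the TRE motif (TGAGTCA) or the related CRE motif (TGACGTCA). Fos, Fosb, Jun, Junb and Atf3 are immediate early genes, whose transcription starts within minutes of a growth factor or stress signal, and AP-1 occupies many macrophage enhancers next to PU.1 and C/EBP. H3.3 is deposited at active promoters and enhancers outside DNA replication, and the comparison asked which AP-1 loci gained or lost accessibility without it.

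Accessibility was read from the peak list of each library. A region was a stretch of overlapping peaks from the 4 lists, and a gene's window was its annotated body with 20 kb added on both sides. Each region was ranked by the area of its top peak as a percentile within that library's own list, where 100 is the largest area. A region was called gained if both H3.3cKO lists and neither WT list held a peak in it, and lost in the opposite case. Among regions with a peak in all 4 lists, higher and lower mean that both H3.3cKO percentiles lay above or below both WT percentiles. With 2 libraries per genotype, an exact permutation test has 6 assignments and cannot give a p below 0.33, so no difference here could reach significance, and each is described by its values and by the share of all regions that behave in the same way.

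The WT lists held 55742 and 64939 peaks and the H3.3cKO lists 51955 and 60884, which merged into 71243 regions, 44820 of them (62.9%) called in all 4 libraries. As a check of the labels, a weak peak over the floxed exon of H3f3a was called in WT (percentiles 5.02 and 19.1) and in neither H3.3cKO library. A peak with its midpoint in an intron of H3f3b ranked at 94.2 and 95.5 in WT and at 87.0 and 81.4 in H3.3cKO. A weaker peak, centred on an annotated promoter there, was not lower (23.7 and 34.3 in WT, 28.7 and 42.5 in H3.3cKO). Whether the stronger peak also overlaps an H3f3b promoter was not read. Promoters of 8 of 9 macrophage markers carried a peak in every library, and Spi1 carried none. Of these 8, 3 were lower in H3.3cKO, 1 was higher and 4 overlapped. The lower ones were Csf1r (73.7 and 85.3 in WT, 56.4 and 61.4 in H3.3cKO), Mertk (89.3 and 92.8, 73.9 and 79.1) and Lyz2, the locus that carries Cre (96.1 and 99.02, 57.4 and 59.4). Their part in the AP-1 values was not tested. No promoter of the 4 T cell, 3 B cell, 2 erythroid or 3 fibroblast markers was called in all 4 libraries. Of the 5 neutrophil markers, S100a8 was called in all 4 (76.5 and 78.3 in WT, 50.3 and 64.0 in H3.3cKO), and Ly6g only in H3.3cKO (30.3 and 17.8).

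The AP-1 windows held 80 regions, from 2 at Fosl2 to 18 at Atf3. In 61 of them the nearest protein-coding start site was that of the AP-1 gene itself, and in 19 it belonged to a neighbour. Gained regions numbered 6 (7.50% of the 80, against 3.72% of all 71243 regions) and lost regions 3 (3.75%, against 7.25%). With lists of equal length 6 of 72 AP-1 regions were gained (8.33%), close to the 7.04% of all regions. Every peak of these 9 regions lay below the median area of its list. A stricter threshold at that median thus removed all 9 by construction and does not test them. The 2 gained and 5 lost regions called under that threshold were different ones. The gained regions lay at 4 genes, 3 of them at Atf3 and 1 each at Fosb, Jun and Junb, and the lost regions at 3 genes, Fos, Batf and Batf3. Across the 17263 protein-coding genes with a region in their window, 13.5% had a gained region and 26.4% a lost one. Of the 57 AP-1 regions called in all 4 libraries, 12 were higher in H3.3cKO (21.1%, close to the 22.2% of all such regions) and 26 were lower (45.6%, against 35.1%). When the nearest libraries of both genotypes had to lie more than 10 percentile points apart, no AP-1 region was higher (against 5.2% of all regions) and 12 were lower (21.1%, against 9.66%), of which 6 were at Batf3, 3 at Atf3 and 1 each at Fosl1, Jun and Batf. Higher regions at Fosb, Jund and Atf3 had mean differences of up to 18.8 points, but their nearest libraries lay less than 10 points apart. Leaving out 1 library moved these counts together with those of all regions. Without WT replicate 1, 7 AP-1 regions were lost (8.75%, against 14.4% of all regions). Higher regions numbered 22 (37.9%, against 41.4%) without WT replicate 2 and 20 (34.5%, against 38.7%) without H3.3cKO replicate 1. The remaining AP-1 regions were 19 with overlapping percentiles and 14 called in 1 to 3 libraries in other patterns.

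**Figure D1:**
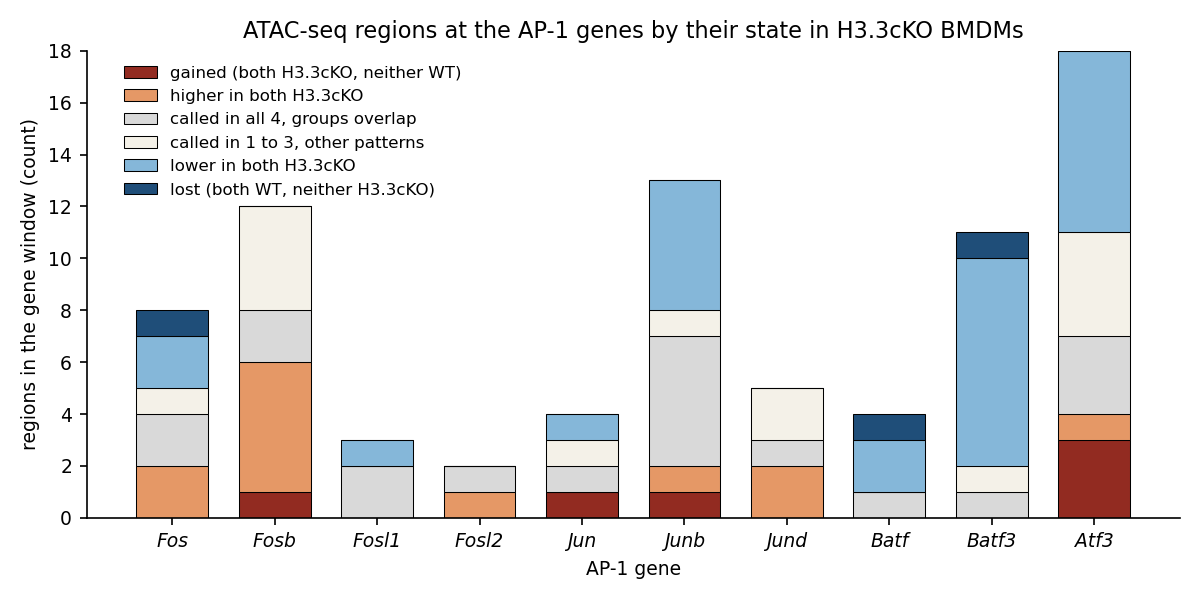
Number of regions in the window of each AP-1 gene, stacked by state in H3.3cKO relative to WT BMDMs (2 libraries per genotype). Fosb shows 5 higher and no lower regions, whereas Batf3 shows 8 lower and no higher ones, and 3 of the 6 gained regions are at Atf3.

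The split by family was uneven. The Fos family (Fos, Fosb, Fosl1 and Fosl2) had 8 higher (44.4%) and 3 lower (16.7%) regions among 18 called in all 4 libraries. Over all such regions 22.2% were higher, but 36.8% with lists of equal length, from which the shares by family were not taken. Of the 8 higher ones 5 were at Fosb, 1 of them in the promoter of Rtn2. The Jun family had 3 higher (18.8%) and 6 lower (37.5%) among 16, near the 22.2% and 35.1% of all regions. Batf, Batf3 and Atf3 together had 1 higher and 17 lower among 23, or 73.9% lower, and the median change of these regions was −6.85 percentile points, against −1.10 over all regions. Batf3 and Atf3 are neighbours on chromosome 1, as Fos and Batf are on chromosome 12, so that these loci are not independent of each other. Over all AP-1 regions the direction depended on the summary. The median of the region differences was −1.99 points, but the median percentile itself was 66.0 and 70.7 in WT and 67.1 and 72.5 in H3.3cKO, a difference of 1.48 (exact permutation p = 0.667). Peaks at the AP-1 windows numbered 62 and 73 in WT and 67 and 73 in H3.3cKO. They made up 0.111% and 0.112% of the WT lists and 0.129% and 0.120% of the H3.3cKO lists, a difference of 0.0126 percentage points (exact permutation p = 0.33).

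**Figure D2:**
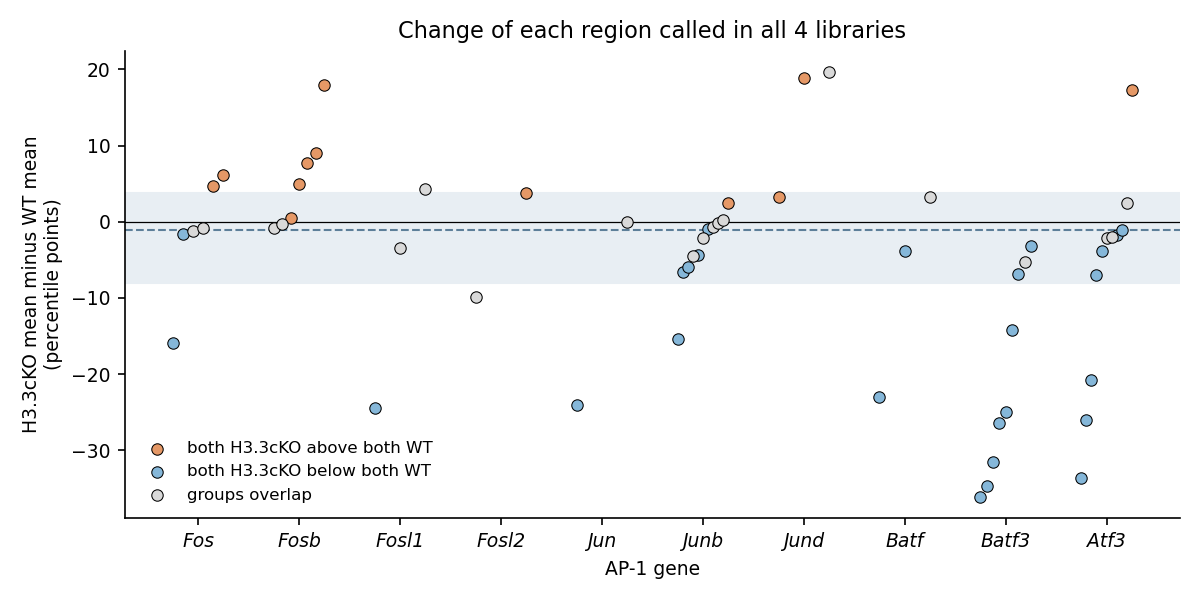
Change in percentile (H3.3cKO mean minus WT mean, in percentile points) of each AP-1 region called in all 4 libraries. The shaded band spans the quartiles over all 44820 such regions (−8.06 to 3.79) and the dashed line is their median (−1.10). Points below the band are most frequent at Batf3 and Atf3, and orange points lie mainly at Fosb, Fos and Jund.

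Fos, the founding member and a partner of Jun proteins, ranked higher at its promoter and had both higher and lower regions in its flanks. Fos (ENSMUSG00000021250.13) is on the forward strand at chr12:85473890-85477273 in mm10. Its promoter region, chr12:85473272-85474862, ranked at 82.1 and 76.3 in WT and at 85.5 and 85.2 in H3.3cKO, so that the genotypes did not overlap. In WT replicate 2 it was split into 2 peaks, of which the larger was ranked, and by their summed area the promoter was higher in H3.3cKO as well. A region 12214 bp downstream of the start site, Fos region 5, was also higher, at 71.5 and 73.2 in WT and 74.8 and 79.4 in H3.3cKO. The lost region at Fos, chr12:85489971-85490671, lay 16431 bp downstream and had ranked at 17.2 and 44.3 in WT. Just before it, the region chr12:85489261-85489724 ranked at 49.5 and 57.8 in WT and at 33.4 and 42.0 in H3.3cKO. The other lower region, chr12:85454873-85456030, 18438 bp upstream, ranked at 94.7 and 95.6 in WT and 93.2 and 93.8 in H3.3cKO. For the 6 Fos regions called in all 4 libraries the median percentile was 73.2 and 74.8 in WT and 75.4 and 77.7 in H3.3cKO, although the median of their differences was −1.03.

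Fosb, the relative of Fos that gives rise to the stable product ΔFosB, was the AP-1 gene with most higher regions. The gene (ENSMUSG00000003545.3) is on the reverse strand at chr7:19302696-19310051. Of its 7 regions called in all 4 libraries, 5 were higher in H3.3cKO and none was lower, and the median percentile was 64.6 and 66.0 in WT against 70.3 and 75.7 in H3.3cKO (difference 7.75, exact permutation p = 0.33). Within 10 kb the difference was 0.646. Without WT replicate 1 it was 0.645, but 8 regions were then counted, as a weak region with no peak in that library came in. For the same 7 regions WT replicate 2 alone stood at 66.0, below both H3.3cKO values. The promoter region, chr7:19309947-19310542, was itself the median region and gave the 4 values above. The largest difference was at chr7:19282408-19282780 in the promoter of the neighbour Rtn2, at 19.3 and 38.1 in WT and 41.8 and 51.4 in H3.3cKO. A gained region at chr7:19321479-19321787, 11582 bp upstream of Fosb in an intron of the noncoding gene D830036C21Rik, ranked at 30.6 and 10.9 in H3.3cKO. It was not called gained when all lists were cut to the same length. The counts rested on the peak area, since by the summit p-value 3 Fosb regions were higher and 1 was lower.

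The sequences below are shown because they carry the motifs found at the Fos family regions. They are the 201 bases centred on the summit of the region's top peak, on the forward strand of GRCm38 (mm10). Capitals mark a CArG box, the core of the serum response element through which SRF acts on immediate early genes, in Fos region 5 (chr12:85485930-85486130) and Fosb region 6, the promoter (chr7:19310261-19310461). In the gained Fosb region 10 (chr7:19321537-19321737) they mark a TRE, read here on the reverse strand as TGACTCA, and an NF-kB motif.
Fos region 5: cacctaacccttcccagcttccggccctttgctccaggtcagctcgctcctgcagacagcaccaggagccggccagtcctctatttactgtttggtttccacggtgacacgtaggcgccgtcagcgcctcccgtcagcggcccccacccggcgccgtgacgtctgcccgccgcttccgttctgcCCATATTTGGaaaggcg
Fosb region 6: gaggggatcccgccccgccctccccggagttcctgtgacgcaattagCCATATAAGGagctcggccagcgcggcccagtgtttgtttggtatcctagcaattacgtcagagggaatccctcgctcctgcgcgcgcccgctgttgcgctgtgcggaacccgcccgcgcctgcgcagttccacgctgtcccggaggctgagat
Fosb region 10: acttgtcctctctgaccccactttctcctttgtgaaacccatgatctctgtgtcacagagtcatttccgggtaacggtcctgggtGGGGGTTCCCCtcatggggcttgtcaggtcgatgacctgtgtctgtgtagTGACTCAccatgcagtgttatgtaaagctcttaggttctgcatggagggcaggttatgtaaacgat

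Fosl1 and Fosl2 encode Fra-1 and Fra-2, Fos proteins that lack the transactivation domain of Fos. No peak was called at the Fosl1 promoter in any library (ENSMUSG00000024912.6, chr19:5447547-5455946, forward strand). The 3 regions in its window lay at the neighbours Ccdc85b, Fibp and Efemp2, and 1 of them, the Efemp2 promoter at chr19:5473740-5474051, was lower (34.6 and 41.3 in WT, 10.1 and 16.8 in H3.3cKO). Fosl2 (ENSMUSG00000029135.10, chr5:32135801-32157842, forward strand) had 2 regions. Its promoter region, chr5:32134920-32136690, was higher, at 88.6 and 91.2 in WT and 92.8 and 94.7 in H3.3cKO, and holds a TRE within 100 bp of the summit. The other region, upstream, overlapped between the genotypes.

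Jun encodes the AP-1 subunit that can act as a homodimer, and its transcription unit lay under 1 of the largest peaks of every list. Jun (ENSMUSG00000052684.4) is on the reverse strand at chr4:95049034-95052222. The peak over it, chr4:95049747-95054167, spanned 4188 to 4368 bp and stood at percentile 99.97 or above in all 4 libraries, so its rank left no room to rise. The flanks differed in opposite directions. On the upstream side, chr4:95054406-95054952 in an intron of Junos, a noncoding gene on the other strand, ranked at 51.8 and 57.9 in WT and 28.0 and 33.7 in H3.3cKO. On the downstream side a region of 233 bp, chr4:95045223-95045455 in an intron of the noncoding gene Gm12703, was gained, at 26.5 and 16.0 in H3.3cKO. Between this region and Jun lay chr4:95047756-95049494, at the 3' end of Jun and the promoter of Gm12703, which was singled out after its values were seen. No peak was called there in WT replicate 1, and a peak of 703 bp at percentile 9.17 was called in WT replicate 2. In H3.3cKO the peaks were 1045 and 1739 bp long, at percentiles 72.1 and 77.8 of the area, but at 20.7 and 32.1 of the summit p-value, against 0.00385 for the WT peak. With lists of equal length this region was called gained, as the weak WT peak was no longer kept.

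Junb, which encodes a Jun protein with weaker activating capacity than Jun on many promoters, had 1 gained and 1 higher region downstream of its start site and lower regions upstream. The gene (ENSMUSG00000052837.6) is on the reverse strand at chr8:84974484-84978718 and had 13 regions, 11 called in all 4 libraries. A gained region, chr8:84975257-84975747, lay 3216 bp downstream of the start site in an intron of an annotated Junb transcript (18.9 and 18.1 in H3.3cKO). Next to it, Junb region 5, chr8:84975892-84976886, was higher, at 82.5 and 84.6 in WT and 86.0 and 85.9 in H3.3cKO. Downstream of the gained region, the regions called in all 4 libraries overlapped between the genotypes, with lower means in H3.3cKO. The region over the start site, chr8:84977214-84979073, did not separate the genotypes (95.1 and 95.9 in WT, 94.1 and 96.6 in H3.3cKO). Upstream of it 5 regions were lower, some of them nearer to the start site of the neighbour Hook2 than to that of Junb. The nearest, chr8:84979396-84980542, reached into the promoter interval and ranked at 98.1 and 97.4 in WT and 96.5 and 97.1 in H3.3cKO. The largest difference was at chr8:84980771-84981401, with 69.4 and 68.4 in WT and 46.7 and 60.5 in H3.3cKO. Median percentiles of the 11 regions were 82.5 and 84.6 in WT and 78.8 and 83.4 in H3.3cKO, which overlapped.

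Jund is the Jun gene transcribed in resting cells. Jund (ENSMUSG00000071076.6, chr8:70698949-70700616, forward strand) had no lost, gained or lower region. Its promoter region, chr8:70698212-70699546, ranked at 91.5 and 91.9 in WT and 94.6 and 95.4 in H3.3cKO. A region 21093 bp downstream, chr8:70719795-70720289 in an intron of Gm3336, was higher as well, at 33.3 and 45.6 in WT and 52.2 and 64.4 in H3.3cKO. The third region called in all 4 libraries ranked at 19.3 and 53.0 in WT and 51.4 and 60.3 in H3.3cKO and overlapped.

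Summit sequences of 4 regions show the letters at the Jun family loci, again as 201 bases on the forward strand of GRCm38. Jun region 1 (chr4:95045233-95045433), the gained region, holds a C/EBP motif. Junb region 5 (chr8:84976550-84976750) holds a CArG box between NF-kB motifs. Jund region 3, the promoter (chr8:70698676-70698876), holds the only CRE among the 80 regions, and a C/EBP motif. Junb region 8 (chr8:84980951-84981151), the upstream region with the largest difference, holds NF-kB motifs at separate places.
Jun region 1: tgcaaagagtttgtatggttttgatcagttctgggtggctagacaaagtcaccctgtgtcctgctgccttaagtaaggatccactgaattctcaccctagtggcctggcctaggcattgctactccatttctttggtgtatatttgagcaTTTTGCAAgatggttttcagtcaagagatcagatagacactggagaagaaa
Junb region 5: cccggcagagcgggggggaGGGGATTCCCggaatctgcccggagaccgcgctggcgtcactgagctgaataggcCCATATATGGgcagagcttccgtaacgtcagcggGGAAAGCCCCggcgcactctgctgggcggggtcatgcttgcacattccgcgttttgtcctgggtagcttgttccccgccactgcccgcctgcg
Junb region 8: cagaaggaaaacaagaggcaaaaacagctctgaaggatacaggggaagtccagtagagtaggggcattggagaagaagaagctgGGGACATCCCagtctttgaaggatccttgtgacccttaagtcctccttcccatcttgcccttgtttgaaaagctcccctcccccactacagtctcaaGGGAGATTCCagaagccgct
Jund region 3: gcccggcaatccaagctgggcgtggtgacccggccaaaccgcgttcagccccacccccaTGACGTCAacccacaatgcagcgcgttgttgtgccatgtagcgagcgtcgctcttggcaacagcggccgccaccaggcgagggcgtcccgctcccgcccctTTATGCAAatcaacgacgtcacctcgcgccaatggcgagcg

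**Figure D3:**
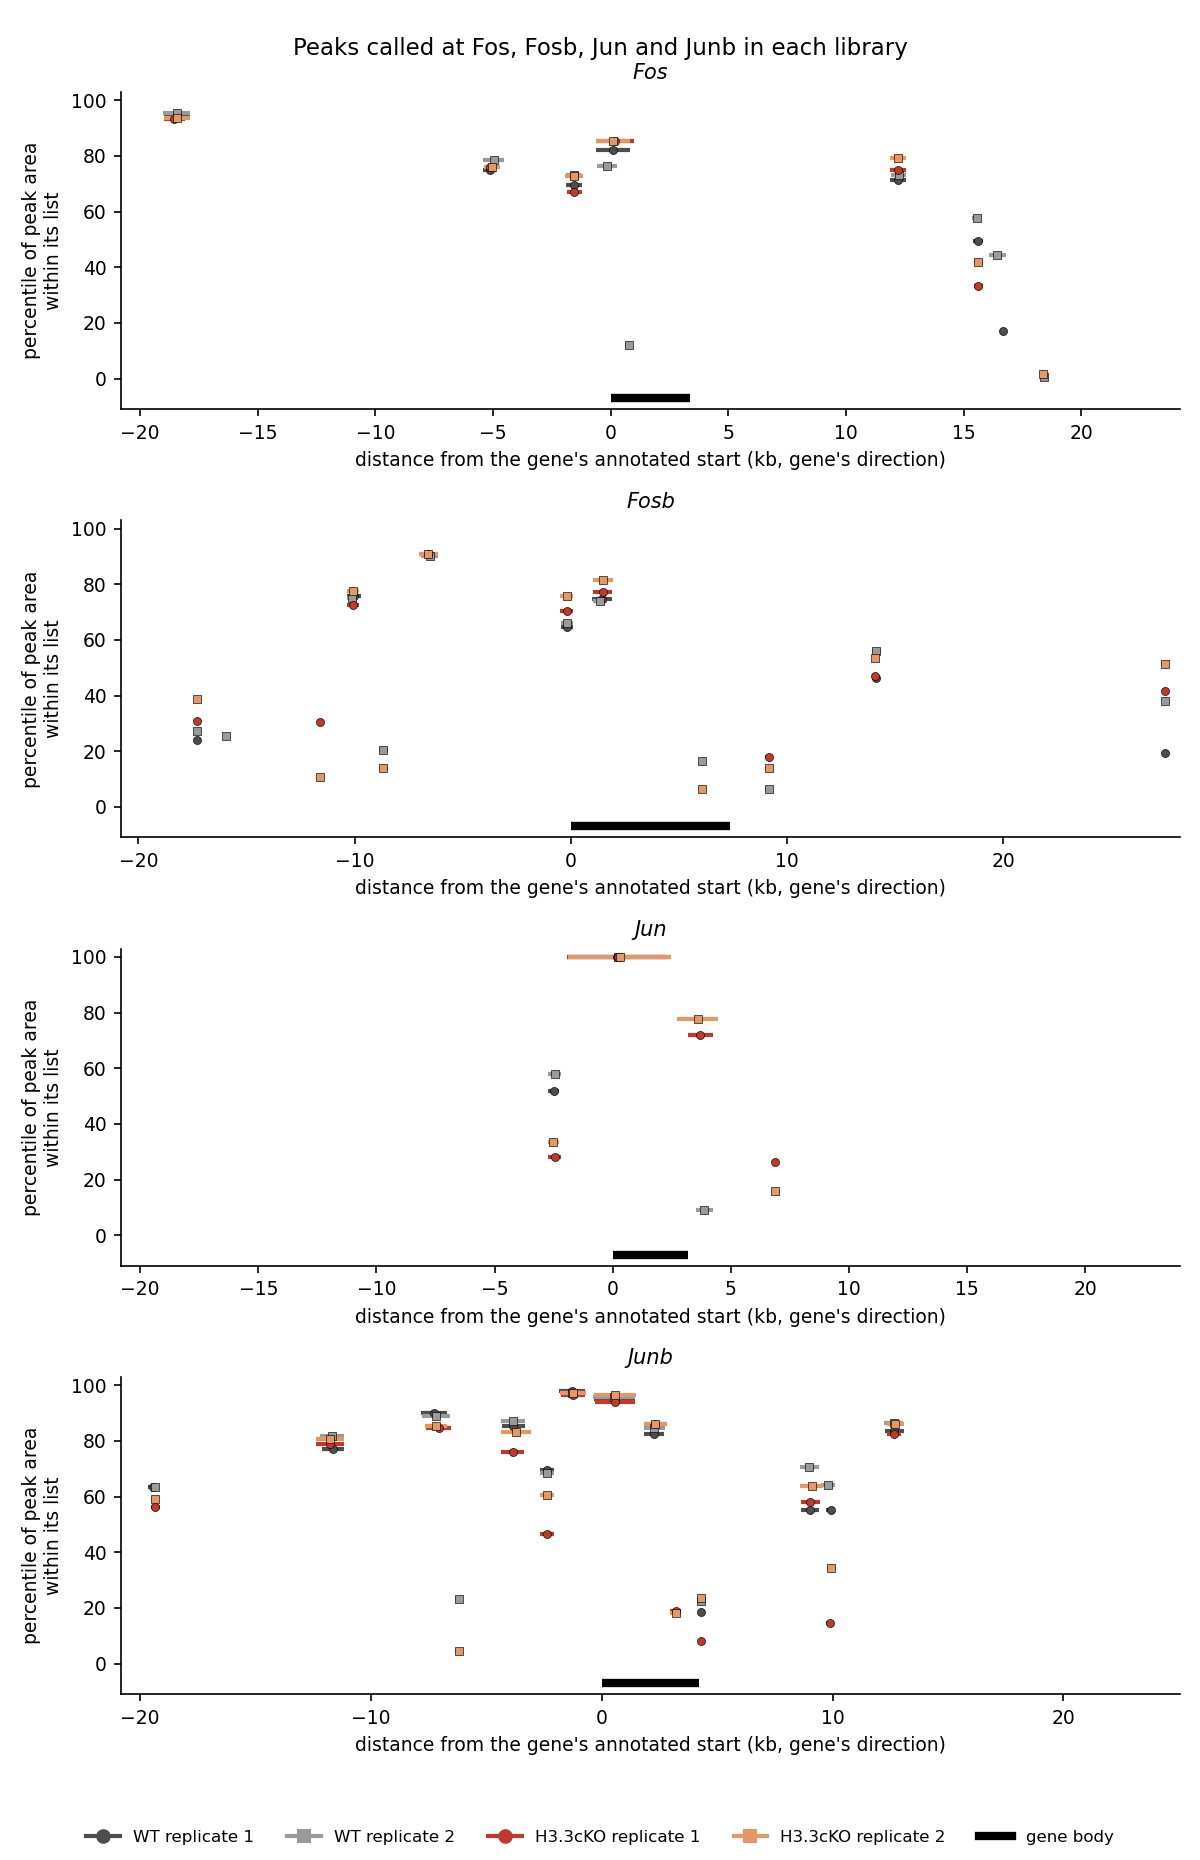
Peaks at Fos, Fosb, Jun and Junb in each of the 4 libraries, by distance from the annotated gene start (kb, in the gene's direction) and percentile of the peak area within its list. Bars show the peak width and the black bar is the gene body. Just downstream of Jun the H3.3cKO peaks stand at 72.1 and 77.8 and the only WT peak, of replicate 2, at 9.17. Orange and red points lie below the grey ones at 5 regions upstream of Junb.

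Batf, a partner of Jun and IRF proteins in lymphoid and myeloid cells, lost the peak at its promoter. Batf (ENSMUSG00000034266.6, forward strand, chr12:85686669-85709087) had a region at chr12:85686591-85687350 over its start site that ranked at 31.4 and 40.2 in WT and held no peak in either H3.3cKO library. Of all 12059 promoters with a peak in any library, 1.14% were lost in this way. With the stricter peak threshold, which kept only peaks above the median area of their list, neither WT peak was kept. Among the other regions of the gene, chr12:85670150-85670433, 16377 bp upstream, was lower, at 36.9 and 45.0 in WT and 15.6 and 20.2 in H3.3cKO. So was a strong intronic region at chr12:85704653-85706044, at 93.3 and 94.9 in WT and 89.2 and 91.3 in H3.3cKO. A region past the 3' end overlapped between the genotypes. A peak below the area limit of the caller in H3.3cKO would not have been listed.

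Batf3, which is required for the cross-presenting type of dendritic cell, had the largest share of lower regions among the 10 genes. Batf3 (ENSMUSG00000026630.9) is on the forward strand at chr1:191097847-191108945. Of its 9 regions called in all 4 libraries 8 were lower in H3.3cKO and none was higher, and the mean was lower in all 9. Median percentiles were 53.4 and 56.1 in WT and 16.5 and 29.2 in H3.3cKO, a difference of −31.9 points (exact permutation p = 0.33). The promoter region, chr1:191097843-191098726, ranked at 43.1 and 55.1 in WT and at 6.81 and 28.4 in H3.3cKO. The largest difference was at chr1:191122748-191123228, 24663 bp downstream of the start site, with 59.7 and 56.1 in WT and 16.5 and 27.1 in H3.3cKO. Differences over the 9 regions ranged from −36.1 to −3.14. Lists of equal length, or percentiles taken only among regions called in all 4 libraries, left 7 of the 9 lower. With a 50% cover the difference of medians was −18.8, but only 7 regions were then called in all 4 libraries, 6 of them lower. The 1 lost region, chr1:191086595-191086899, was weak in WT (1.44 and 0.565) and dropped out with lists of equal length.

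Since Batf3 is required for a type of dendritic cell, the 3 dendritic cell markers were read beside it. The Zbtb46 promoter ranked lower in H3.3cKO (69.0 and 74.1 in WT, 39.6 and 56.5 in H3.3cKO), the Flt3 promoter ranked higher (24.2 and 37.3 in WT, 47.0 and 53.9 in H3.3cKO), and the Xcr1 promoter had no peak in any library. The part of dendritic-like cells in the Batf3 values was not tested. In bulk cultures, fewer cells with an open site and less opening per cell cannot be told apart.

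Atf3 encodes a stress-induced factor that represses inflammatory genes in macrophages, and its window held 3 gained regions beside lower ones. Atf3 (ENSMUSG00000026628.13) is on the reverse strand at chr1:191170296-191218039 and had 18 regions, 11 called in all 4 libraries, of which 7 were lower and 1 was higher. The promoter region, chr1:191182260-191184040, at 98.0 and 98.5 in WT and 97.0 and 97.2 in H3.3cKO, moved by −1.14 points near the top of the lists. The largest difference was at chr1:191185719-191186728, 2884 bp upstream of that start site, with 57.2 and 65.2 in WT and 20.5 and 34.7 in H3.3cKO. Gained regions were chr1:191168158-191168954, past the 3' end (36.0 and 47.3 in H3.3cKO), chr1:191172522-191172850, in an intron (23.3 and 25.3), and chr1:191232680-191232967, upstream of the gene (8.75 and 18.3). The nearest protein-coding start site to the first and second of these is that of Fam71a, so that neither was assigned to Atf3 by nearest start site, and the upstream one lay outside a 10 kb window. The higher region, chr1:191216161-191216551, lay 1683 bp inside the distal annotated start and ranked at 10.9 and 26.8 in WT and 34.2 and 38.1 in H3.3cKO. Median percentiles of the 11 regions were 66.0 and 70.8 in WT and 60.1 and 72.5 in H3.3cKO, which overlapped.

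**Figure D4:**
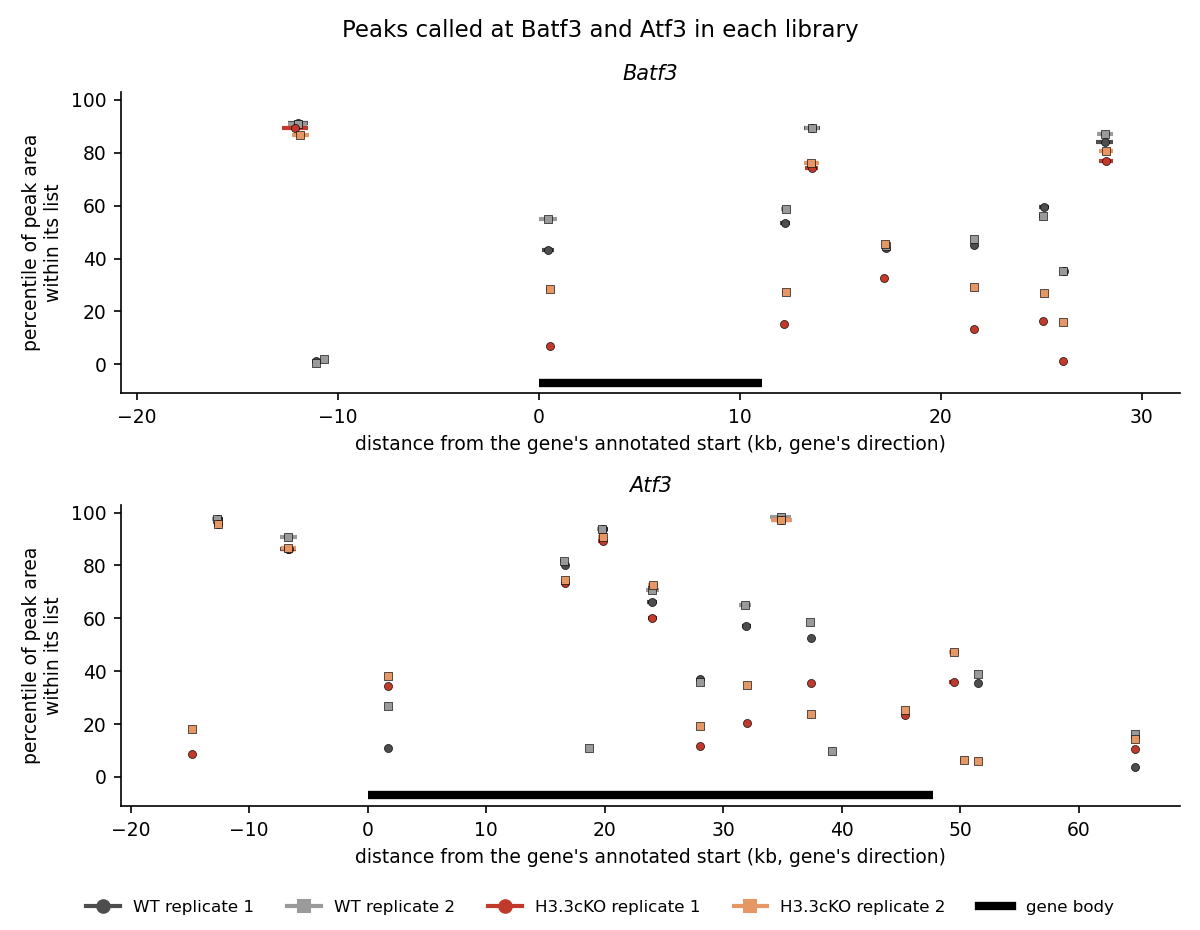
Peaks at Batf3 and Atf3 in each of the 4 libraries, by distance from the annotated gene start (kb, in the gene's direction) and percentile of the peak area within its list. At Batf3 the H3.3cKO points lie below the WT points at the promoter (6.81 and 28.4 against 43.1 and 55.1) and at most downstream regions. The region 16793 bp downstream is the exception and overlaps (32.7 and 45.5 in H3.3cKO, 44.0 and 44.6 in WT). At Atf3 the gained regions appear as pairs of H3.3cKO points without WT points.

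The sequence before the start sites of Batf and Batf3 is given because these were the AP-1 promoters with the largest differences. It comes from the RefSeq promoter table of GRCm38.p6, which held 9 of the 10 genes, and runs on the forward strand up to the GENCODE start site of the protein-coding transcript, as chr12:85686470-85686669 for Batf and chr1:191098164-191098325 for Batf3, where noncoding transcripts of the gene start further upstream. Capitals in the Batf sequence mark a RUNX motif (AACCACA), which 5.27% of the 32851 promoters in that table hold. The Batf3 promoter held none of the 7 motifs searched. Atf3 region 15, the higher region (chr1:191216190-191216390), and Atf3 region 10 (chr1:191189932-191190132), a lower region of the same gene (36.8 and 35.8 in WT, 11.8 and 19.3 in H3.3cKO), are shown as 201-base summit sequences, since a TRE in capitals is found in both.
Batf promoter: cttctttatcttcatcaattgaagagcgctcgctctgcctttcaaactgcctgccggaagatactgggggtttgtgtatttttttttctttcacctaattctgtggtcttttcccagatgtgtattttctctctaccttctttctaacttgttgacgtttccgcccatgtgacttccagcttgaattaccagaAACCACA
Batf3 promoter: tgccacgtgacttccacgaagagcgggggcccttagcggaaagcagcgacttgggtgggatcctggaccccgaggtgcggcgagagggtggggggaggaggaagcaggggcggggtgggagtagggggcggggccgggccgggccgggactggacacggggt
Atf3 region 15: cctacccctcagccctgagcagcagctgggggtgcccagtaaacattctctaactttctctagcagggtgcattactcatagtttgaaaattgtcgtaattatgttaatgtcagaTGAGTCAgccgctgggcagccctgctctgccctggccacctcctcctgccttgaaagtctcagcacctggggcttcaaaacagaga
Atf3 region 10: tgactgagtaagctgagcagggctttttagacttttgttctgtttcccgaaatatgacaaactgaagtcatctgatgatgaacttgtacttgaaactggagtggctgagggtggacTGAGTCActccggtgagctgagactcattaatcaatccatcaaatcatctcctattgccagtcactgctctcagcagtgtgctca

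Set side by side, 4 promoters were higher and 3 were lower. Those of Fos, Fosb, Fosl2 and Jund were higher in both H3.3cKO libraries, by 6.14, 7.75, 3.83 and 3.29 points, whereas 21.2% of all 11182 promoters with a peak in all 4 libraries were higher. Those of Junb, Batf3 and Atf3 were lower, with differences of −0.942, −31.5 and −1.14 points, whereas 33.8% of all promoters were lower. The counts were not tested against these shares. Junb and Atf3 moved little, at percentile 96 or above in all 4 libraries, unlike Batf3. The Junb value comes from the peak 1251 bp upstream, and the region over its start site overlapped. The sizes varied, with 3.26 for Fos without WT replicate 2 and 3.46 by summed area, 5.03 for Fosb without H3.3cKO replicate 2, −0.605 for Junb without WT replicate 1, and −20.7 for Batf3 without H3.3cKO replicate 1. By the summit p-value they were 12.6 at Fosb, 12.4 at Jund, 7.29 at Fosl2, −2.62 at Junb, −1.96 at Atf3 and −12.1 at Batf3. With a 50% cover the Batf3 promoter no longer counted as called in H3.3cKO, and with the stricter peak threshold it was called only in WT replicate 2, at 10.3. Jun overlapped, Batf was lost and Fosl1 was not called. As mean ± SD (n = 2), the Fos promoter stood at 79.2 ± 4.07 in WT and 85.3 ± 0.189 in H3.3cKO, and the Batf3 promoter at 49.1 ± 8.51 and 17.6 ± 15.3. Each difference without overlap had an exact permutation p of 0.33, the smallest this design allows. Fos, Fosb, Fosl2 and Jund stayed higher, and Junb and Atf3 lower, with lists of equal length, by the summit p-value and by summed area. Leaving out 1 library, pairing replicates or the stricter threshold could not reverse such an order, so those settings do not test it.

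**Figure D5:**
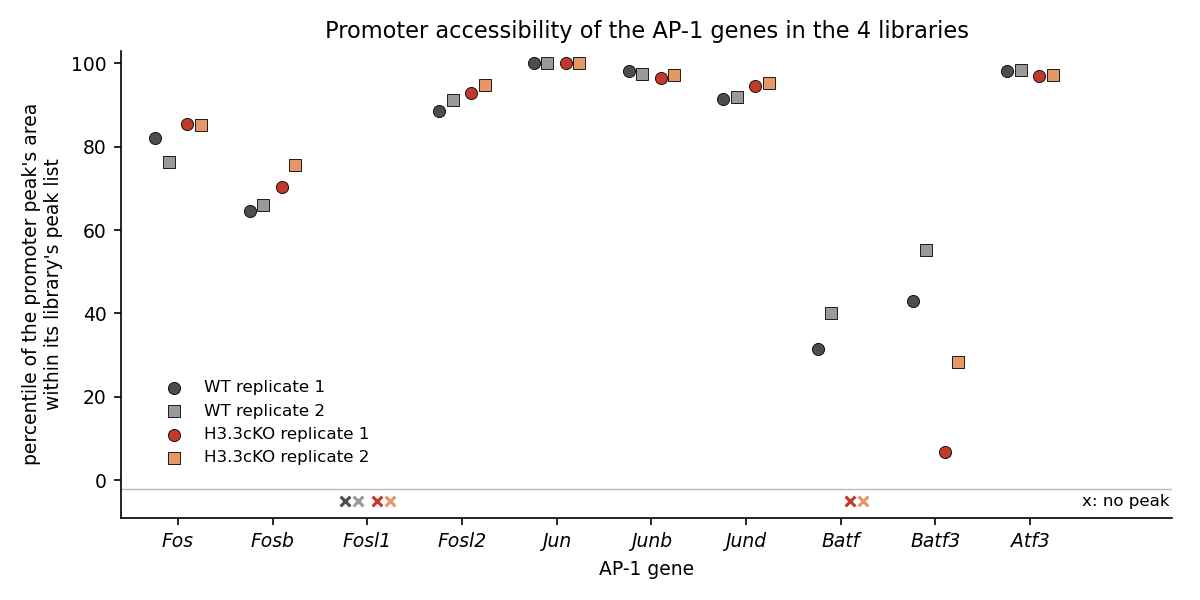
Percentile of the promoter peak's area within its library's list for each AP-1 gene and library; crosses mark libraries with no promoter peak. Both H3.3cKO points lie above both WT points for Fos, Fosb, Fosl2 and Jund and below them for Batf3, and the Batf promoter has points only in WT, at 31.4 and 40.2.

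Motifs were searched on both strands within 100 bp of the summit of each region's top peak, and a match is a description of letters, not of a bound site. The CArG box was found in 4 of the 80 AP-1 regions (5.0%), against 1.15% of all regions. These were Fos region 5, Fosb region 6, Junb region 5 and a region in the promoter of Hook2 in the Junb window. The first 3 were higher in H3.3cKO and the Hook2 region overlapped. The TRE was found in 9 of the 80 (11.2%), close to the 13.5% of all regions, and these 9 were 1 gained, 3 higher and 3 lower regions together with others that had no order. Among all 2653 gained and 5164 lost regions of the series, the TRE was found in 22.6% and 7.28%. At the AP-1 genes themselves, it was in 1 of the 6 gained and in none of the 3 lost regions. C/EBP motifs (TTGCNNAA) were found in 13 of the 80 regions, against 12.3% of all regions, and in the lost regions of Fos and Batf3. NF-kB motifs were found in 6 regions (7.50%, against 4.85%), RUNX in 4 (5.0%, against 8.38%) and PU.1 (GAGGAAGT) in 4 (5.0%, against 11.01%). The TRE and CRE letters do not contain each other, and matches of different motifs may overlap.

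The rest of the pathway was described with the same windows. The 58 genes of this list held 466 regions, of which 18 were gained (3.86%) and 27 lost (5.79%), and of 312 called in all 4 libraries 72 were higher (23.1%) and 108 lower (34.6%). These shares are near those of all regions. The list was read by role.

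By comparison, 3.72% of all regions were gained and 7.25% lost, and no subgroup was tested against them. Among 13 bZIP partners and relatives, 5 of 112 regions were gained (4.46%) and 10 lost (8.93%). Nfe2l2, which encodes the oxidative stress factor Nrf2, had 2 of the gained regions, and Bach2, a repressor at AP-1-like sites, had 5 of the lost ones. The 13 kinases that activate AP-1 through the ERK, JNK and p38 cascades had 104 regions with 2 gained, at Mapk8 (JNK1) and Map2k6, and 5 lost, 2 of them at Mapk14 (p38α). In the 9 feedback inhibitors, phosphatases and Sprouty proteins that end MAP kinase signals, 1 of 59 regions was gained, at Spry2, and 3 were lost, 2 of them at Dusp1. Among 11 factors upstream of the AP-1 genes 4 of 109 regions were gained (3.67%) and 6 lost (5.50%), with 2 gained and 3 lost at Mef2c and 2 lost at Creb1. The 12 target genes had 6 gained (7.32%) and 3 lost (3.66%) regions of 82. Plaur, the urokinase receptor, had 3 of the gained ones and Cd44, the hyaluronan receptor, 2 of the lost ones. In the targets 16 of 49 regions called in all 4 libraries were higher (32.7%) and 11 lower (22.4%), against 22.2% and 35.1% of all regions. The higher share over all regions was itself 36.8% with lists of equal length.

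The genes of 2 other inducible families were read in the same way. The 10 NF-kB subunit and inhibitor genes had 77 regions with 2 gained and 3 lost, and 11 higher and 22 lower of 53 called in all 4 libraries. The 9 interferon regulatory factor genes had 80 regions, none gained and 9 lost (11.2%), with 14 higher and 20 lower of 57. The share of lower regions was 45.6% at the AP-1 genes, 41.5% at the NF-kB genes and 35.1% at the interferon regulatory factor genes, the last being that of all regions. Gained and lost shares of these lists stand against 3.72% and 7.25% of all regions. These lists were not tested against each other.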

How the data were processed

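ATAC-seq libraries from 2 WT and 2 H3.3cKO BMDM cultures were compared, grouped by the sample titles. Per the labels and the study's methods, the authors aligned reads to mm10 with Bowtie2 2.5.1 and ran the peak caller Genrich on every library by itself. The signal column deposited by the authors is the area of each peak under its significance curve. The deposited −log10 p column is the value at the summit and served only as an alternative ranking. Read filters, duplicate removal and any shift for the transposase are not given in the sources used here. Areas depend on depth, which is unknown, so only percentiles within a list were compared, and no interval for counting error was given. The study's own comparison used read counts in DiffBind, and these were not analysed here.

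Peaks sharing at least 1 bp were merged in Python 3.11.15 (pandas 2.3.3, numpy 2.4.6, scipy 1.17.1). Windows and classes came from the GENCODE M21 annotation, with promoters from 1 kb upstream to 100 bp downstream of a start site. Sequences came from RefSeq GRCm38.p6 through pysam 0.24.0 and samtools 1.23.1. Single values were compared by two-sided exact permutation tests over 4 libraries, and region counts were set beside the same counts over all regions. The code for the calls was checked on simulated lists with little noise, which gives no error rate for the real libraries. The members, pathway lists and motifs were chosen with earlier results of these data known. Regions named were each gene's promoter, every gained or lost region and the largest higher and lower region. The other named regions (Fos regions 1 and 5, Jun region 2, Junb region 6, Batf region 3, Atf3 region 10, Jund region 4 and the Hook2 region) were singled out after their values or letters were seen. Alternatives were a stricter threshold (peaks above their list's median area), lists of equal length, windows of 10 and 50 kb, the nearest start site, a 50% cover, other rankings, a 10-point gap between the nearest libraries, each library left out and replicate pairs. Percentiles among regions called in all 4 libraries were added after the data were seen.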

Additional observations from a re-analysis of the deposited data

How the results depend on the processing

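With peaks above the median area only, 2 regions were gained, 5 lost and 13 lower. The 9 gained or lost regions named in the text had only peaks below that median, so this threshold could not keep them. Within 10 kb 1 was lost and 15 were lower, within 50 kb 8 were lost, 29 higher and 51 lower of 112 called in all 4 libraries (45.5% lower, against 45.6%), and by nearest start site 7 were lost. A gap of 10 points between the nearest libraries left 0 higher and 12 lower regions. Leaving out 1 library gave 6 to 8 gained, 3 to 7 lost, 12 to 22 higher and 27 to 37 lower regions. The 7 lost regions arose without WT replicate 1, and 22 and 20 higher regions without WT replicate 2 or H3.3cKO replicate 1.

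The AP-1 share of peaks changed sign with the stricter threshold (−0.00745 percentage points). The median percentile difference over AP-1 regions changed sign with the stricter threshold (−2.91), within 50 kb (−3.18), by nearest start site (−1.46), with 50% cover (−0.0793), by summit p (−2.95) and by summed area (−0.152), and ranged from −4.00 to 4.20 with 1 library left out, the lowest without H3.3cKO replicate 2. With 1 library left out the median difference ranged from 0.645 to 10.5 at Fosb, 1.42 to 3.68 at Fos, −4.15 to −0.172 at Junb and −38.3 to −25.5 at Batf3. A region then needed a peak only in the libraries left, so the set of regions could change, as at Fosb without WT replicate 1. Within 50 kb the median differences at Fos and Junb were −1.28 and 0.430. Atf3 gave 0.560 with percentiles taken only among regions called in all 4 libraries. With 1 library left out, Atf3 ranged from −9.50 without H3.3cKO replicate 1 to 0.293 without WT replicate 2. For the −9.50, 12 regions were counted instead of 11, as a region with no peak in H3.3cKO replicate 1 came in. On the 11 regions H3.3cKO replicate 2 stood at 72.5, above the 66.0 and 70.8 of WT. The Jun promoter ranged from −0.00147 without WT replicate 1 to 0.00824 without WT replicate 2. The cause of the other changes was not tested.

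Among AP-1 regions that separated the genotypes, 68.4% were lower. The share was 61.0% with lists of equal length and 59.5% with percentiles taken only among regions called in all 4 libraries. Over all regions these shares were 61.2%, 49.3% and 49.5%. Lower regions thus outnumbered higher ones at the AP-1 genes under each of the 3 scalings and over all regions only under the first. This excess came from the neighbours Batf3 and Atf3. With lists of equal length, of 25 lower and 16 higher regions, Batf3 held 7 and 0 and Atf3 held 7 and 1. Without these genes lower regions did not outnumber higher ones under any of the 3 scalings. The replicate numbers pair the libraries only by number (correlation of deviations 0.295). With the replicate block 15 regions were higher and 30 lower, gained and lost counts were the same 6 and 3, and the smallest p of 2 pairs is 0.5.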
